A study of Mus musculus with 8 samples.

Results

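Mouse CD8 T cells without p50 and cRel, subunits of the transcription factor NF-kB, were compared with CD8 T cells without the kinase PKCθ. Both had spent 18 h with dendritic cells that carried the ovalbumin peptide N4. The comparison took in all probe sets that the array's annotation gives 1 gene symbol and whose gene lies on an autosome, which were 33584 of 45037 probe sets. Of these, 22213 passed a filter on dim probe sets, and they stood for 12080 of the 12520 genes tested. Each group had 2 arrays, labelled p50 cRel DKO (the double knockout) and PKC theta KO, so 4 of the 8 arrays of the series carry the comparison. The other arrays were wild-type cells with N4 (2 arrays) and wild-type cells with dendritic cells that carried no peptide (2 arrays, here non-pulsed), and they serve as points of reference. All mice had the C57BL/6 background. Splenic CD8 T cells were picked out with magnetic beads by positive selection and mixed with dendritic cells, 1 for every 10 T cells, and the peptide-carrying dendritic cells had been grown from bone marrow. Cells with CD11c were then depleted before RNA was extracted. The labels used here do not state how the knockout alleles were made, which cells lack the genes, which antigen receptor the T cells carried, the age of the mice or whether each array had its own mouse. The spread behind each p-value is therefore that between these arrays, which may be technical.

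PKCθ sits just below the T cell receptor and the costimulatory receptor CD28. Through adaptor proteins it frees NF-kB dimers to enter the nucleus, and it also feeds the AP-1 and NFAT pathways. The subunits p50 and cRel are end points of that route: cRel is the NF-kB subunit best known for driving the Il2 gene in T cells, and p50 binds DNA as a partner of cRel or RelA and, as a homodimer, can hold genes down. Losing the kinase removes an input that several factors share, whereas losing the subunits removes part of the output whatever the input.

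Levels are given as log2(signal + 16) of the deposited signals, and a difference is the mean of the double knockout arrays minus the mean of the PKCθ knockout arrays on that scale, which understates the differences of dim genes. Arrays of a pair of numbers are given in the order replicate 1 and replicate 2. The median signal was 36.7 and 47.7 in the PKCθ knockout and 37.8 and 48.0 in the double knockout. In wild-type cells it was 33.6 and 52.5 with N4 and 52.6 and 70.3 non-pulsed. Replicate 1 thus had the lower median in each group. Pearson's r across genes was 0.977 between the PKCθ knockout arrays and 0.987 between the double knockout arrays. PKCθ knockout replicate 1 reached 0.984 and 0.981 with the double knockout arrays, and PKCθ knockout replicate 2 reached 0.970 and 0.974. Replicate 1 of the PKCθ knockout thus correlated more closely with both double knockout arrays than with its own replicate. The number of arrays limits the precision. Rel, which encodes cRel, read 6.19 and 5.92 in the double knockout against 9.63 and 8.97 in the PKCθ knockout, a difference of -3.25 (SE 0.26, limma adjusted p = 0.00361). The PKCθ gene, Prkcq, read on average 10.88 in the PKCθ knockout against 11.69 and 11.30 in the double knockout. That difference of 0.62 (SE 0.21) did not pass (limma adjusted p = 0.51). The labels do not say which exons were deleted, so the Prkcq signal is no check of that genotype. The non-pulsed arrays also carried more signal of B cell, dendritic cell and macrophage markers than any N4 array. CD8 identity was plain on all 4 knockout arrays, with Cd8a between 12.89 and 13.29 and Cd3e between 11.86 and 12.37, while Cd4 lay between 4.36 and 4.65, under the filter on dim probe sets.

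The knockouts differed in a small set of genes. In the double knockout Gzmc, Prf1, Ltb, Cd7, Il7r, Egr1 and 4 interferon-induced genes were higher. Rel, Il3, Il2, Il6, Ccl9, Acsl6, Mreg, Mme, Cxcr5, Bhlhe40 and Cd2 were lower. The test by limma called 54 of 12520 genes (adjusted p under 0.05, Benjamini-Hochberg), which is 0.431%. Of these, 30 were higher in the double knockout (0.240%) and 24 were lower (0.192%), and all 54 were autosomal. Each of the 54 differed by at least 2-fold, 20 of them by at least 4-fold (10 higher and 10 lower). The arrays of the groups did not overlap for any of the 54, but 33.9% of all genes tested had arrays that did not overlap, so this alone sets no gene apart. The median difference over all autosomal genes was 0.02, and 897 of the 12520 genes had an unadjusted p under 0.05.

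The count rested on having both arrays of each group. Without PKCθ knockout replicate 1 the limma count was 34, and without its replicate 2 it was 13. Without double knockout replicate 2 it was 2 (Il3 and Ltb), and without its replicate 1 it was 0, with 548 genes at an unadjusted p under 0.05. All 54 genes kept their direction in each of these 4 fits. Across 11 other ways of processing the values, 10 of the 54 genes passed every time: Il3, Ltb, Acsl6, Ccl9, Cd7, Gzmc, Ifit1bl1, Rel, Padi2 and Ifit3.

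**Figure D1:**
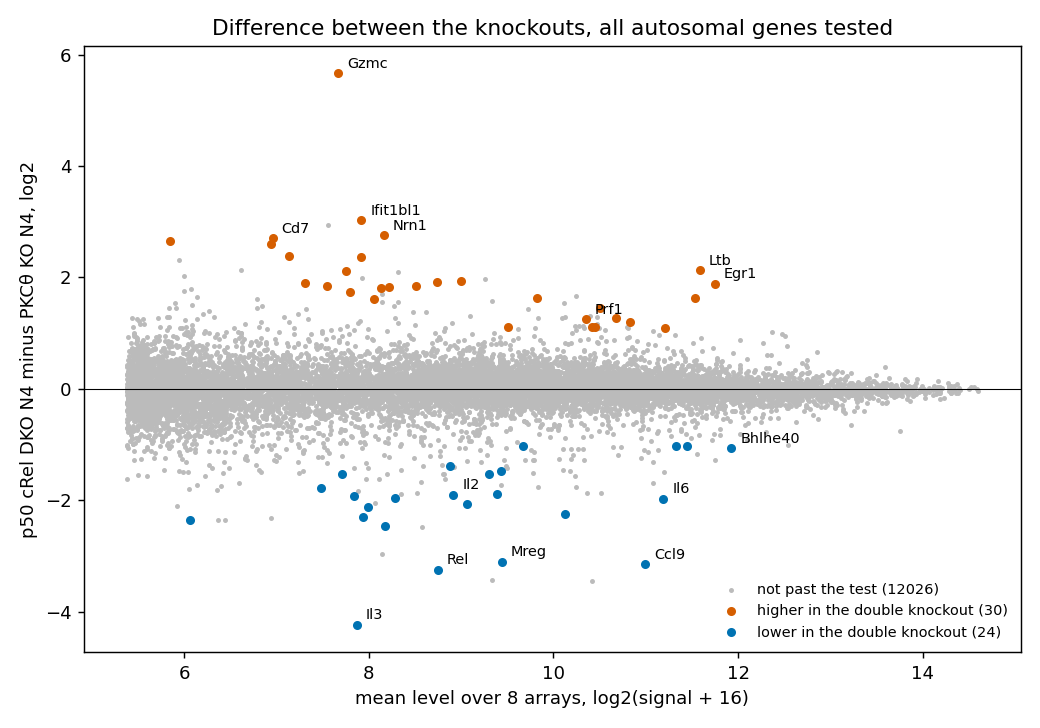
Each point is 1 autosomal gene: the horizontal axis is its mean level over the 8 arrays as log2(signal + 16), and the vertical axis is the double knockout minus the PKCθ knockout on that scale. The 30 genes that passed on the higher side (orange) and the 24 on the lower side (blue) are drawn over 12026 genes that did not pass (grey), with Gzmc highest at 5.66 and Il3 lowest at -4.24.

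Among cytokines, Il3, Il2 and Il6 were lower in the double knockout and lymphotoxin beta was higher. Il3, a growth factor for blood cell precursors and basophils, read 10.58 and 9.95 in the PKCθ knockout and 6.00 and 6.05 in the double knockout. The groups lay far apart and the double knockout arrays nearly coincided. The difference of -4.24 (SE 0.29, limma adjusted p = 0.00255) is 18.8-fold on this scale, and Il3 had the lowest p of all genes. Wild-type N4 cells read 10.69 and 10.53, so the PKCθ knockout lay close to them, and non-pulsed wild-type cells read 4.28 and 4.87, under both knockouts.

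Il2, the growth factor that activated T cells make for themselves and their neighbours, was highest in wild-type N4 cells. It read 11.34 and 11.75 in wild-type N4 cells, 9.75 and 8.91 in the PKCθ knockout, 7.39 and 7.46 in the double knockout and 7.12 and 7.60 in non-pulsed wild-type cells. No array of the PKCθ knockout overlapped either neighbour in this order, while the double knockout and the non-pulsed cells overlapped. Between the knockouts the difference was -1.90 (SE 0.30, limma adjusted p = 0.0416), or 3.74-fold. Against wild-type N4 cells the double knockout stood at -4.12 and the PKCθ knockout at -2.22, in comparisons that share the wild-type arrays. Of these the former passed (limma adjusted p = 0.000984) and the latter did not (limma adjusted p = 0.135). In those comparisons 0.519% and 0.0240% of all genes passed, and 40.7% did between wild-type N4 and non-pulsed cells. The call for Il2 between the knockouts was lost after median centring of the arrays, without the filter on dim probe sets, when every probe set was tested on its own and without the mean-variance trend.

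Il6, an inflammatory cytokine made mostly by dendritic cells, macrophages and stromal cells, read 11.43 and 11.65 in the PKCθ knockout and 9.49 and 9.64 in the double knockout, a difference of -1.97 (SE 0.32, limma adjusted p = 0.0473). Il6 passed in 4 of the 11 alternatives and in 0 of the 4 fits without an array of these groups. Its highest values were those of non-pulsed wild-type cells, at 12.01 and 13.18. Ltb, a membrane-bound TNF family member that resting lymphocytes express, read 10.26 and 10.30 in the PKCθ knockout and 12.67 and 12.16 in the double knockout. The double knockout was higher by 2.13 (SE 0.20, limma adjusted p = 0.00621) and lay between wild-type N4 cells (10.42 and 10.00) and non-pulsed cells (13.52 and 13.39). B cells express Ltb too, and the summed signal of 17 B cell markers was 109696 and 76403 on the non-pulsed arrays against 6177 to 18320 on the N4 arrays. Between the knockouts that sum overlapped. The part of B cells in the Ltb level of non-pulsed cells was not tested. Of 26 cytokines and TNF family ligands measured, 3 were lower, 1 was higher and 22 did not pass. The median of the list was -0.59 beside 0.02 for all autosomal genes, with 13 members differing by more than 1.

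Several cytokines of effector cells had wide differences that did not pass the test. Il17a read 11.86 and 11.75 in the PKCθ knockout and 7.98 and 8.73 in the double knockout, a difference of -3.45 (SE 1.13, limma adjusted p = 0.48). The standard error draws on the spread in all 4 groups, and the SD of Il17a was 3.23 between the non-pulsed arrays and 0.08 to 0.53 in the groups with N4. Il21, which supports B cell help and CD8 function, differed by -1.89 (SE 0.55). Csf2, which encodes GM-CSF, read 7.94 and 6.63 against 4.50 and 5.35, a difference of -2.36 (SE 0.90). Ifng, the main macrophage-activating cytokine of CD8 cells, read 13.81 and 12.83 against 11.80 and 11.86, a difference of -1.49 (SE 0.64, limma adjusted p = 0.681). For Csf2 and Ifng the arrays of the groups did not overlap. Tnf differed by 0.41 and its arrays overlapped.

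**Figure D2:**
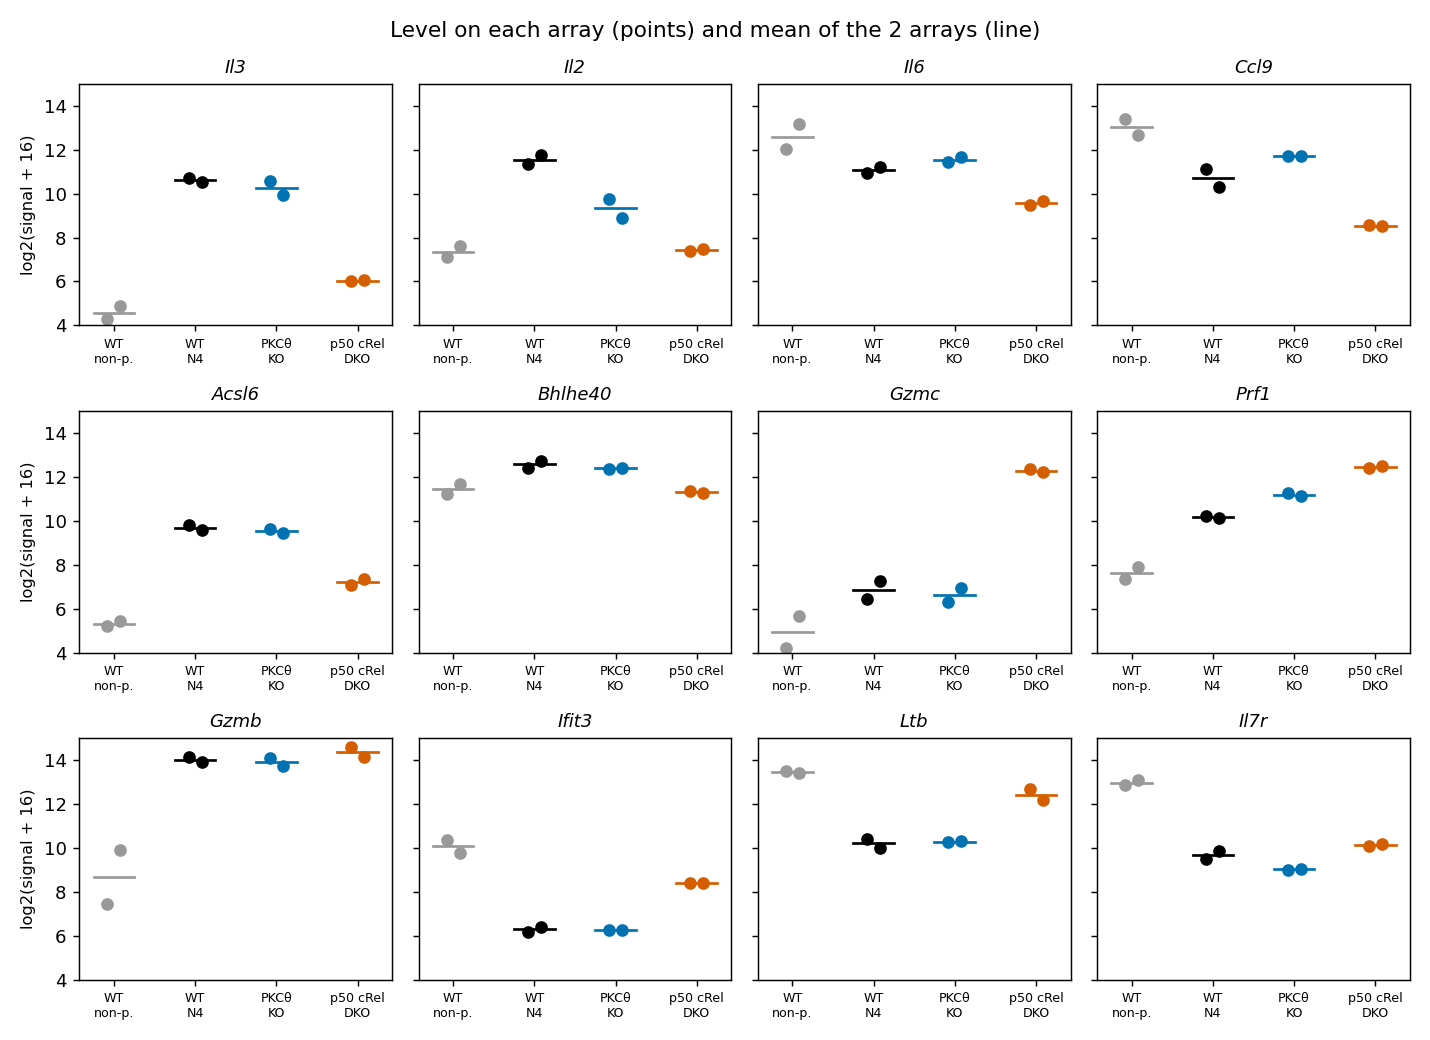
Each panel shows 1 gene, with points for single arrays and a line for the mean of the 2 arrays of a group, as log2(signal + 16) on a shared vertical axis. Il3, Il6, Ccl9, Acsl6 and Bhlhe40 are lowest among N4 cultures in the double knockout (orange), Il2 is also lowest there among N4 cultures, with the PKCθ knockout below WT N4, and Gzmc reads 12.35 and 12.20 in the double knockout against at most 7.26 elsewhere.

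The stretches before the start sites of 4 cytokine and chemokine genes that were lower in the double knockout are shown because NF-kB acts through DNA sites of this kind. RefSeq promoters of build GRCm38.p6 were held for 39 of the 54 genes, and 250 bases before each start were searched on both strands. Il2 lies on the minus strand at chr3:37125955-37126204, Il3 on the minus strand at chr11:54267280-54267529, Il6 on the plus strand at chr5:30012864-30013113 and Ccl9 on the minus strand at chr11:83578637-83578886. Capitals mark matches to the kappaB consensus, to the CD28 response element core AAATTCC and to the AP-1 site TGANTCA, and no matches overlap in these 4 stretches.
Il2: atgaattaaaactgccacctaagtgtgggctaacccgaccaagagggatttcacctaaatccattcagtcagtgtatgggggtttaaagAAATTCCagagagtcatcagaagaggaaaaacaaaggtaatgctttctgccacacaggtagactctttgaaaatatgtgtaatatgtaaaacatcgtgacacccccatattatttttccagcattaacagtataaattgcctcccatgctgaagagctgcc
Il3: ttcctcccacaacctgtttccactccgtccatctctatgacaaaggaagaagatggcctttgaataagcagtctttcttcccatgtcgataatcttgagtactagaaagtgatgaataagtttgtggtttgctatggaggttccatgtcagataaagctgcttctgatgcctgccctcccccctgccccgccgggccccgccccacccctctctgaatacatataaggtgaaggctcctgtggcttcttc
Il6: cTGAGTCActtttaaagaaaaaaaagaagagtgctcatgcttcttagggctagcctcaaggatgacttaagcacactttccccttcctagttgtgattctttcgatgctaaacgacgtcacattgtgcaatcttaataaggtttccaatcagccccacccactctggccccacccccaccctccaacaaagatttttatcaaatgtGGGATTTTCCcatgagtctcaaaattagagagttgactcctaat
Ccl9: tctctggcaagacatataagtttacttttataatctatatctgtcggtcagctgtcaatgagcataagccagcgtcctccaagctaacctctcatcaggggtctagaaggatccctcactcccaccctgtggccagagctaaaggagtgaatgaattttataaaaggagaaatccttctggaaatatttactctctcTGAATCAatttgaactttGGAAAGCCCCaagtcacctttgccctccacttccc
Counted from the start, the Il2 stretch held the CD28 response element core at -161 to -155. Il6 held a kappaB match at -44 to -35 and an AP-1 match near the far end. Ccl9 held an AP-1 match and, closer to the start, a kappaB match. In the Il3 stretch none of these letters occurred. Over all 39 genes the kappaB consensus matched in 8 (3 higher and 5 lower in the double knockout), against 8.23% of all 27025 genes with a promoter in the table. The 5 lower genes include Rel, whose place on that side follows from the genotype. A gene with several promoters was counted once, when any of them matched, and 7.25% of all 32851 promoters of this length held the motif. The CD28 response element core matched in 4 (3 higher, 1 lower) against 4.02% of all genes and 3.43% of promoters. The AP-1 site matched in 6 (1 higher, 5 lower) against 7.82% of all genes and 6.75% of promoters. These matches describe letters and say nothing of binding.

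Other genes on the lower side were a chemokine, receptors, enzymes and a transcription factor. Ccl9, a chemokine of myeloid cells, read 11.69 and 11.71 in the PKCθ knockout and 8.56 and 8.54 in the double knockout, a difference of -3.15 (SE 0.29, limma adjusted p = 0.00604), and its other probe set differed by -3.22. Acsl6, a ligase that activates long-chain fatty acids, read 9.62 and 9.42 against 7.08 and 7.35, a difference of -2.31 (SE 0.22, limma adjusted p = 0.00624). Wild-type N4 cells read 9.80 and 9.57 for Acsl6, and the PKCθ knockout overlapped them. Cxcr5, the receptor that leads lymphocytes to B cell follicles, read 9.43 and 9.72 against 7.71 and 7.29 (-2.07, SE 0.25). It passed in 9 of the 11 alternatives. Its highest values were those of non-pulsed wild-type cells, at 10.79 and 10.43, and the part of B cells in its level was not tested. Bhlhe40, a transcription factor that supports cytokine production in activated T cells, read 12.36 and 12.40 against 11.34 and 11.28 (-1.07, SE 0.17, limma adjusted p = 0.0453), a call made in 4 of the 11 alternatives and in 0 of the 4 fits without an array. Cd2, an adhesion receptor of T cells, differed by -1.03 (SE 0.13) and was 1 of 8 CD8 T cell identity genes to pass.

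For a further group the PKCθ knockout lay above wild-type N4 cells and the double knockout below them. Mreg, a protein of organelle transport, read 10.46 and 10.20 in the PKCθ knockout, 9.16 and 8.02 in wild-type N4 cells and 7.001 and 7.45 in the double knockout, a difference between the knockouts of -3.10 (SE 0.34). Mme, the membrane peptidase neprilysin, read 9.26 and 9.32, 7.41 and 8.27, and 6.81 and 6.83 in the same order (-2.47, SE 0.32). Nid1, a basement membrane protein, differed by -2.35 (SE 0.38) and Mt2, a metal-binding metallothionein, by -2.26 (SE 0.36), calls made in 5 and 6 of the 11 alternatives. For these 4 genes the double knockout and PKCθ knockout arrays fell on either side of the mean of wild-type N4 cells. Neither knockout passed against wild-type N4 cells for any of them. The lowest limma adjusted p there was 0.202, for Mreg in the double knockout. For all 4 genes non-pulsed wild-type cells read above both wild-type N4 arrays. They read 11.56 and 11.66 for Mreg, 8.43 and 9.07 for Mme, 7.69 and 7.83 for Nid1 and 11.15 and 11.01 for Mt2. The part of cells other than CD8 T cells in these levels was not tested. The remaining large differences were those of Utf1 (-2.12, passing in 4 of the 11 alternatives), the cyclophilin Ppic (-1.96), the aldo-keto reductase Akr1c13 (-1.92) and the protease Casp6 (-1.89). The only probe set past the filter that went against its gene's call was 1 of Utf1, at 0.34.

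Dendritic cells and macrophages also make Ccl9 and Il6, so the marker genes of those cells are given beside them. None of 31 dendritic cell and macrophage markers passed limma, and 3 had an unadjusted p under 0.05. Their median difference was -0.22, and 1 of the 31 differed by more than 1. Their summed signal was 14296 and 10690 in the PKCθ knockout and 11212 and 10474 in the double knockout, against 147618 and 110668 in non-pulsed wild-type cells, so the knockout groups overlapped. The lowest p in that list was that of the Fc receptor Fcgr3 (-0.98, limma adjusted p = 0.266). Ccl22, a chemokine of mature dendritic cells, differed by -1.69 (limma adjusted p = 0.277). In bulk samples fewer cells of a type and less RNA per cell cannot be told apart. The part of these cells in the lower Ccl9 and Il6 was not tested.

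Among cytotoxic granule genes, granzyme C and perforin were higher in the double knockout. Gzmc, the serine protease granzyme C, read 6.30 and 6.92 in the PKCθ knockout and 12.35 and 12.20 in the double knockout. The difference of 5.66 (SE 0.47, limma adjusted p = 0.00361) is 50.7-fold and was the largest of the 54. Between the arrays of replicate number 1 it was 6.05, and between those of number 2 it was 5.28. Wild-type N4 cells read 6.43 and 7.26, so the PKCθ knockout overlapped them. Prf1, the pore-forming protein perforin, read 11.25 and 11.13 in the PKCθ knockout and 12.38 and 12.50 in the double knockout (1.25, SE 0.20, limma adjusted p = 0.041). It passed in 5 of the 11 alternatives and in 0 of the 4 fits without an array. Both knockouts lay above the wild-type N4 arrays, which read 10.20 and 10.11. Another probe set of Prf1, which was dim, differed by 0.21.

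Gzmb, granzyme B, read 14.10 and 13.72 against 14.57 and 14.12, a difference of 0.43 (SE 0.62) that did not pass. Gzma, granzyme A, read 7.49 and 10.03 in the PKCθ knockout and 5.97 and 5.61 in the double knockout, a difference of -2.97 (SE 1.07, limma adjusted p = 0.56) with a wide spread in the PKCθ knockout. Of 19 granule genes measured, 2 were higher, 0 were lower and 17 did not pass, and 4 had an unadjusted p under 0.05. The median of the list was 0.03. NK and innate lymphocytes also carry perforin. The summed signal of 6 of their markers was 8354 and 10313 in the PKCθ knockout and 10767 and 10787 in the double knockout. Both double knockout arrays thus lay above the PKCθ knockout in the sum. Eomes, which T and NK cells share, is among the 6, so the sum is not one of NK cells alone. The mean level of the 6 markers overlapped, at 9.68 and 9.61 against 9.64 and 9.56, and 4 of the 6 differences lay above 0. Klrd1, the brightest of the 6 on these arrays, read 12.31 and 12.81 against 12.83 and 12.85. Fcer1g went the other way, at 8.54 and 8.21 against 8.16 and 7.66. The NK markers Ncr1 and Klra8 were under the filter on dim probe sets. The part of such cells in the higher Prf1 and Gzmc was not tested.

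The Gzmc promoter is shown because this gene had the largest difference. It lies on the minus strand at chr14:56234658-56234907 of GRCm38.p6, and capitals mark the CD28 response element core at -74 to -68 from the start, the only match to the motifs searched.
Gzmc: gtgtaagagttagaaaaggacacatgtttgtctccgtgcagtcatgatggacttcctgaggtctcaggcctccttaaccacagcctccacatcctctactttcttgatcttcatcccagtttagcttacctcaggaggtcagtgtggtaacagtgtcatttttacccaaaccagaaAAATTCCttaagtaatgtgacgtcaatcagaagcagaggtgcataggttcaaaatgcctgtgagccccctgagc
The same letters thus occur before a gene that was higher in the double knockout and, in Il2, before a gene that was lower.

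Interferon-stimulated genes were higher in part. Ifit1bl1, a member of the IFIT family of RNA-binding antiviral proteins, read 5.68 and 6.10 in the PKCθ knockout and a mean of 8.92 in the double knockout, a difference of 3.03 (SE 0.25, limma adjusted p = 0.00361). Ifit3, of the same family, read 6.27 and 6.28 against 8.39 and 8.40, a difference of 2.12 (SE 0.24, limma adjusted p = 0.0142). Ifi213, of the family of interferon-induced DNA sensors, differed by 2.37 (SE 0.24) and Rtp4, an interferon-induced chaperone of receptors, by 1.92 (SE 0.22). For all 4 genes the PKCθ knockout lay within 0.63 of wild-type N4 cells on average and the double knockout lay between these and non-pulsed wild-type cells, which reached 11.65 for Ifit1bl1 and 10.36 for Ifit3.

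Of 30 interferon-stimulated genes measured, these 4 were higher, 0 were lower and 26 did not pass, beside 0.240% of all genes that were higher. Probe sets of these families may also bind transcripts of close relatives, which was not tested. The median of the list was 0.27, and 23 of the 30 lay above 0. Oas2, which makes the messenger that activates RNase L, differed by 1.45 (SE 0.29, limma adjusted p = 0.10), and Ifit1 by 1.01. Others lay near 0, such as Oas1a (0.03) and Ifi27l2a (0.05), and Usp18, which damps interferon receptor signalling, differed by -0.81 without passing. Of 16 genes of MHC class I presentation, which interferon also raises, 0 passed limma and 2 had an unadjusted p under 0.05, Tapbp at 0.78 and Tap2 at 0.41.

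The stretch before Ifit3, on the plus strand at chr19:34583279-34583528 of GRCm38.p6, shows the interferon-stimulated response element core (GAAA, any 2 bases, GAAA), a motif added after these values were seen. Both matches are on the other strand, as TTTC, 2 bases and TTTC, with an AP-1 match nearer the start and no overlap between them.
Ifit3: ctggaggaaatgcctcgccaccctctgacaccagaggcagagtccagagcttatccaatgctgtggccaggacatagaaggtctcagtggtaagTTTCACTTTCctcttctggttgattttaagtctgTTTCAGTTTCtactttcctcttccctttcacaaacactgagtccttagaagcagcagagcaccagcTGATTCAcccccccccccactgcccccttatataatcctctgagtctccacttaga
That core matched in 4 of the 39 genes with a promoter, Ifit3, Ifit1bl1, Ifi213 and Gstt1, all higher in the double knockout, against 3.46% of all genes and 2.98% of all promoters. Since the motif was added with the direction of these genes known, the count is a description.

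The genes of resting T cells that passed, Cd7 and Il7r, were higher in the double knockout. Cd7, a surface protein of resting T cells, read 4.64 and 4.88 in the PKCθ knockout, near the low end of the scale, and 7.25 and 7.69 in the double knockout, a difference of 2.71 (SE 0.28, limma adjusted p = 0.00939). Il7r, the receptor chain for the survival cytokine IL-7, read 9.01 and 9.05 against 10.10 and 10.19 (1.12, SE 0.17, limma adjusted p = 0.0339), and its other probe set differed by 1.37. Il7r passed in 5 of the 11 alternatives and in 0 of the 4 fits without an array, while Cd7 passed in all 11 and in 2 of the 4. Wild-type N4 cells lay between the knockouts for Il7r, at 9.50 and 9.85. Of 34 naive and quiescence genes 2 were higher, 0 were lower and 32 did not pass. The median of the list was 0.25, and 14 members had an unadjusted p under 0.05. Ccr9, a chemokine receptor of gut-homing cells, missed the threshold narrowly at 2.09 (limma adjusted p = 0.0504). Slfn1, linked to T cell quiescence, differed by 1.18 (limma adjusted p = 0.0675). St6gal1, a sialyltransferase, differed the other way (-1.18) without passing.

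Among transcription factors of activated T cells, Egr1 was higher and Bhlhe40 lower. Egr1, an early response factor of the ERK pathway, read 10.94 and 10.12 in the PKCθ knockout and 12.42 on both double knockout arrays, a difference of 1.88 (SE 0.26, limma adjusted p = 0.0288). Wild-type N4 cells, at 11.73 and 11.20, lay between the knockouts. The highest Egr1 values were those of non-pulsed wild-type cells, at 12.63 and 12.52. Of 40 factors measured, Egr1 was higher, Bhlhe40 was lower and 38 did not pass, with a list median of -0.24. Nr4a3, a nuclear receptor induced by antigen receptor signals, differed by -0.91 (limma adjusted p = 0.064), and Ahr, the aryl hydrocarbon receptor, by -1.27 (limma adjusted p = 0.0731). The effector regulators Tbx21 (0.09) and Irf4 (0.24) did not pass and their arrays overlapped. Eomes, which T and NK cells share, differed by -1.001 (SE 0.53) without passing.

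Dusp6 and Rgs16, which switch off signals, were also higher in the double knockout. Dusp6, the phosphatase that switches off ERK, read 9.11 and 9.02 in the PKCθ knockout and 10.54 and 10.86 in the double knockout (1.63, SE 0.24, limma adjusted p = 0.0325), and passed in 6 of the 11 alternatives. Its levels were 9.67 and 8.95 in wild-type N4 cells and 10.26 and 10.13 in non-pulsed cells. Rgs16, which turns off G protein signals of chemokine receptors, read 11.17 and 11.03 against 12.15 and 12.43 (1.19, SE 0.15), and its other 2 probe sets differed in the same direction, by up to 1.71. Ripk3, the kinase of necroptosis, differed by 1.10 (SE 0.16). Dusp6, Rgs16 and Ripk3 are outside the rule for named genes and were picked from the 54 after their values were seen. The other large differences on this side included those of the neuronal growth protein Nrn1 (2.76, SE 0.38), 2900026A02Rik, a transcript with no other name that was also picked after its value was seen (2.66, SE 0.31), Igfbp7, which binds insulin-like growth factors (2.60, SE 0.39), the glutathione transferase Gstt1 (2.39, SE 0.34), Tmem71 (1.95), the receptor phosphatase Ptprf (1.89), the ligand Wnt10a (1.85), the peptidylarginine deiminase Padi2 (1.85) and the folate receptor family member Izumo1r (1.83). Igfbp7 passed in 6 and Ptprf in 5 of the 11 alternatives. The PKCθ knockout read 4.46 and 4.27 for 2900026A02Rik, near the low end of the scale. Another probe set of 2900026A02Rik, under the filter on dim probe sets, differed by -1.02. Probe sets of Igfbp7 under that filter differed by -0.11 and -0.63. Izumo1r is also 1 of the 5 measured CD4 T cell markers, of which no other passed.

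**Figure D3:**
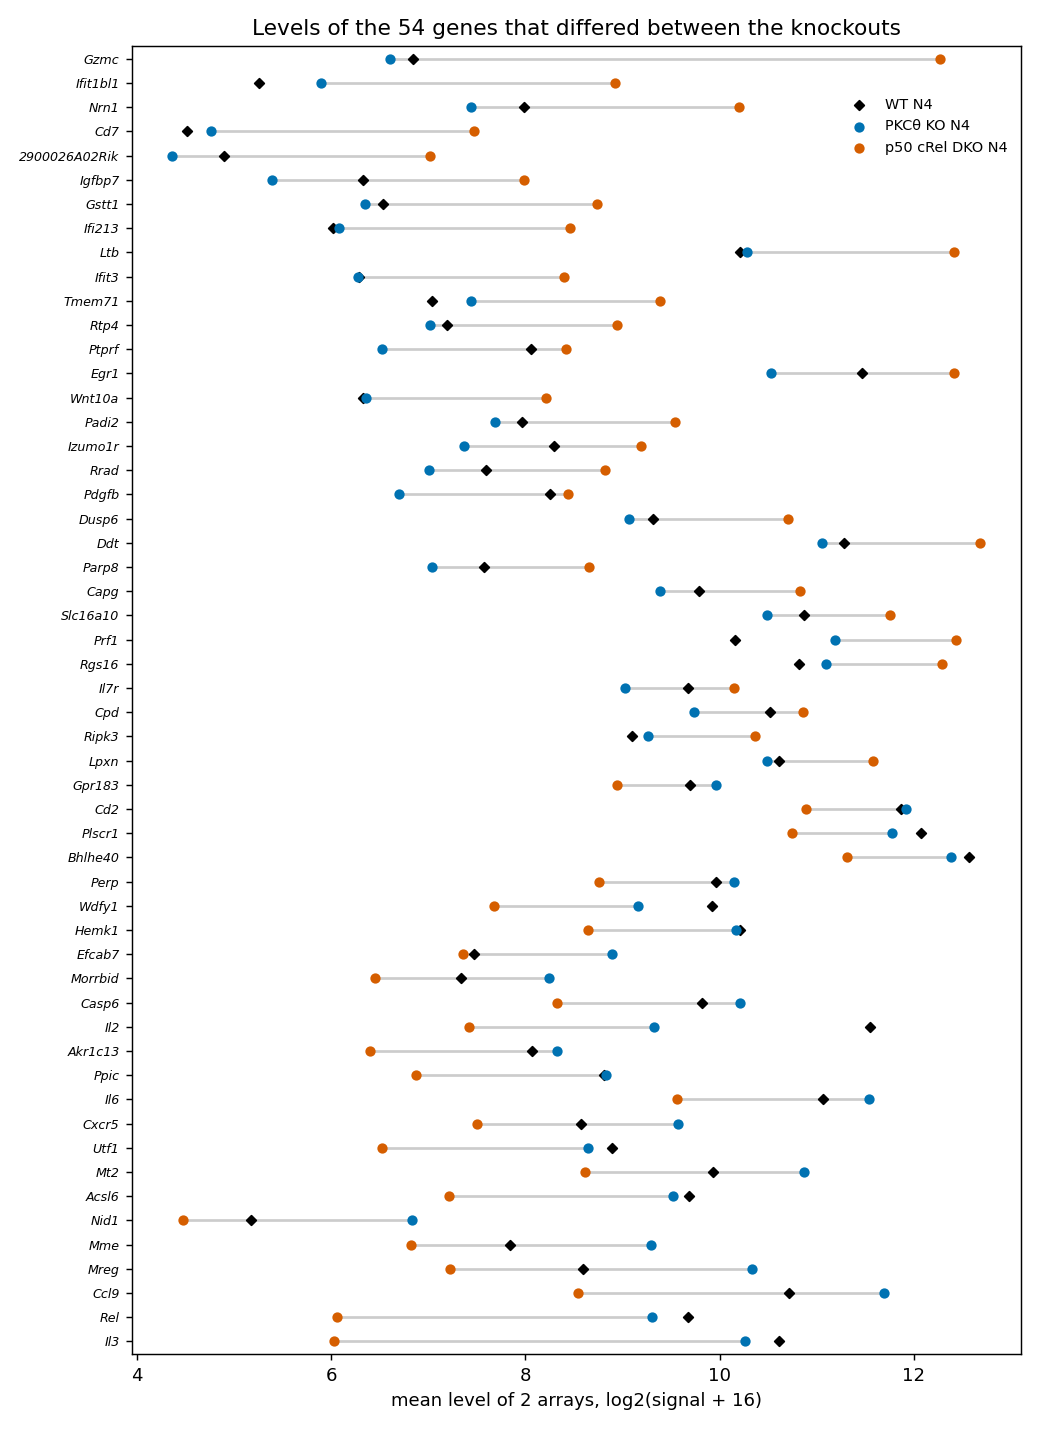
Each row is 1 of the 54 genes that passed, ordered by difference, and the horizontal axis is the mean level of 2 arrays as log2(signal + 16) in the PKCθ knockout (blue), the double knockout (orange) and wild-type N4 cells (black diamonds). For Gzmc, Ltb, Ifit3 and Il3 the wild-type diamond sits next to the PKCθ knockout, while for Il2 it lies above both knockouts.

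In the NF-kB list the only call was Rel, a gene that the double knockout lacks. Nfkb1, which encodes p50, was not on that list, so its level is not among those given here. Of 27 subunits, IkB proteins and feedback genes, Rel was lower and 26 did not pass, and the median of the list was 0.06. Relb, the subunit of the noncanonical pathway, read 10.08 and 9.60 in the PKCθ knockout and 11.05 and 10.81 in the double knockout, a difference of 1.09 (SE 0.21, limma adjusted p = 0.0843). Nfkb2, its usual partner, differed by 0.57 (SE 0.31), and Map3k14, the kinase of that pathway, by 0.76 (SE 0.21), both without passing. Otud1, a deubiquitinase, differed by 1.56 (SE 0.34, limma adjusted p = 0.14). The inhibitor Nfkbia differed by 0.25, Tnfaip3, which encodes A20, by -0.73 and Rela by 0.13, and these did not pass.

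Upstream signalling genes likewise gave no call. Of 40 genes of T cell receptor and PKC signalling 0 passed limma and 7 had an unadjusted p under 0.05, with a list median of 0.15. Themis, a T cell receptor signalling adaptor, had the lowest p at -1.87 (SE 0.33, limma adjusted p = 0.064). Its arrays did not overlap, at 10.70 and 11.59 in the PKCθ knockout and 9.26 and 9.29 in the double knockout. Bcl10, an adaptor of NF-kB signalling, differed by 0.67 (limma adjusted p = 0.114), the adaptor Lcp2 by 0.91 and the Ras activator Rasgrp1 by 0.83.

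Among cytokine and costimulatory receptors and genes of the IL-2 response, Il7r gave the only call. Of 30 cytokine and costimulatory receptors Il7r was higher and 29 did not pass. Il2ra, the high-affinity chain of the IL-2 receptor, read 12.43 and 11.65 against 11.89 and 11.87, and Cd69, an early activation marker, 11.14 and 11.04 against 11.23 and 11.50. Il12rb2, a receptor chain for IL-12, differed by -1.21 (limma adjusted p = 0.328). Of 21 genes of the IL-2 receptor, STAT5 and SOCS feedback 0 passed limma and 5 had an unadjusted p under 0.05. Their median was -0.34, with Stat5a at -0.60 (limma adjusted p = 0.147) and 5 of the 21 above 0. Of 18 inhibitory receptors 0 passed limma and 7 had an unadjusted p under 0.05, among them Lag3 (-1.04, limma adjusted p = 0.0775), Klrc1 (1.06) and Pdcd1lg2 (1.57), which point in both directions. Of 24 chemokines and chemokine receptors Ccl9 and Cxcr5 were lower and 22 did not pass, with a median of -0.31.

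Lists of growth and survival genes gave no call. Of 38 cell cycle genes, 27 genes of Myc and ribosome biogenesis, 15 of glycolysis, 22 of amino acid transport and ATF4 response, 23 of cholesterol and fatty acid synthesis and 21 of survival and apoptosis, 0 passed limma. At an unadjusted p under 0.05 the counts were 5, 1, 2, 1, 1 and 4. The list medians were 0.11, 0.03, -0.49, -0.14, 0.18 and 0.03 in that order. The proliferation marker Mki67 differed by 0.81 (limma adjusted p = 0.31) and Myc by -0.04. Glycolysis genes lay below 0 in all but 1 of 15 cases, with Hk2, the induced hexokinase, at -0.52 (limma adjusted p = 0.342) and the lactate exporter Slc16a3 at -1.62. Within replicate numbers the glycolysis median was -0.14 and -0.79. A difference that did not pass here is not shown to be absent.

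**Figure D4:**
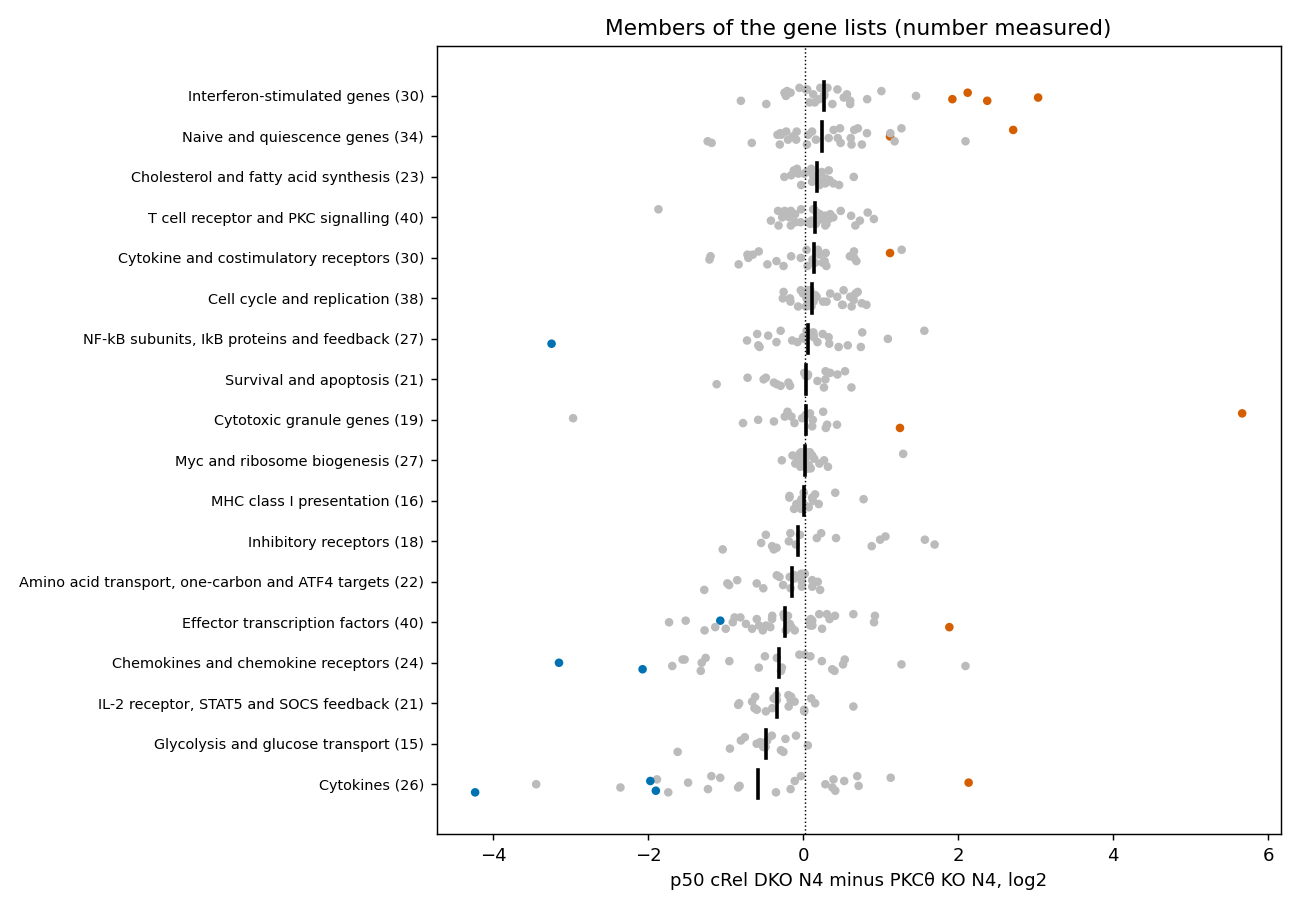
Each point is 1 gene of a list placed by its difference (double knockout minus PKCθ knockout, log2), orange where it passed on the higher side and blue on the lower. Black bars are list medians, from -0.59 for cytokines to 0.27 for interferon-stimulated genes, and the dotted line is the median of all autosomal genes at 0.02; most members are grey because they did not pass.

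Apart from Izumo1r, no marker of another cell type passed. Of 17 B cell markers 0 passed limma and 2 had an unadjusted p under 0.05, and their summed signal was 18320 and 9391 in the PKCθ knockout and 17028 and 15599 in the double knockout. The PKCθ knockout arrays thus lay on both sides of the double knockout. Of 9 neutrophil markers 0 passed limma and 0 had an unadjusted p under 0.05. Of 4 erythroid markers 0 passed and 1 had an unadjusted p under 0.05, with Hbb-b2 at 1.28. Their summed signal was 378 and 341 in the PKCθ knockout and 386 and 467 in the double knockout, without overlap. Of the 6 NK and innate lymphocyte markers 0 passed limma and 0 had an unadjusted p under 0.05. The summed signal of the 8 CD8 T cell identity genes was 60762 and 60008 in the PKCθ knockout and 57676 and 46479 in the double knockout, lower on both arrays of the latter.

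**Figure D5:**
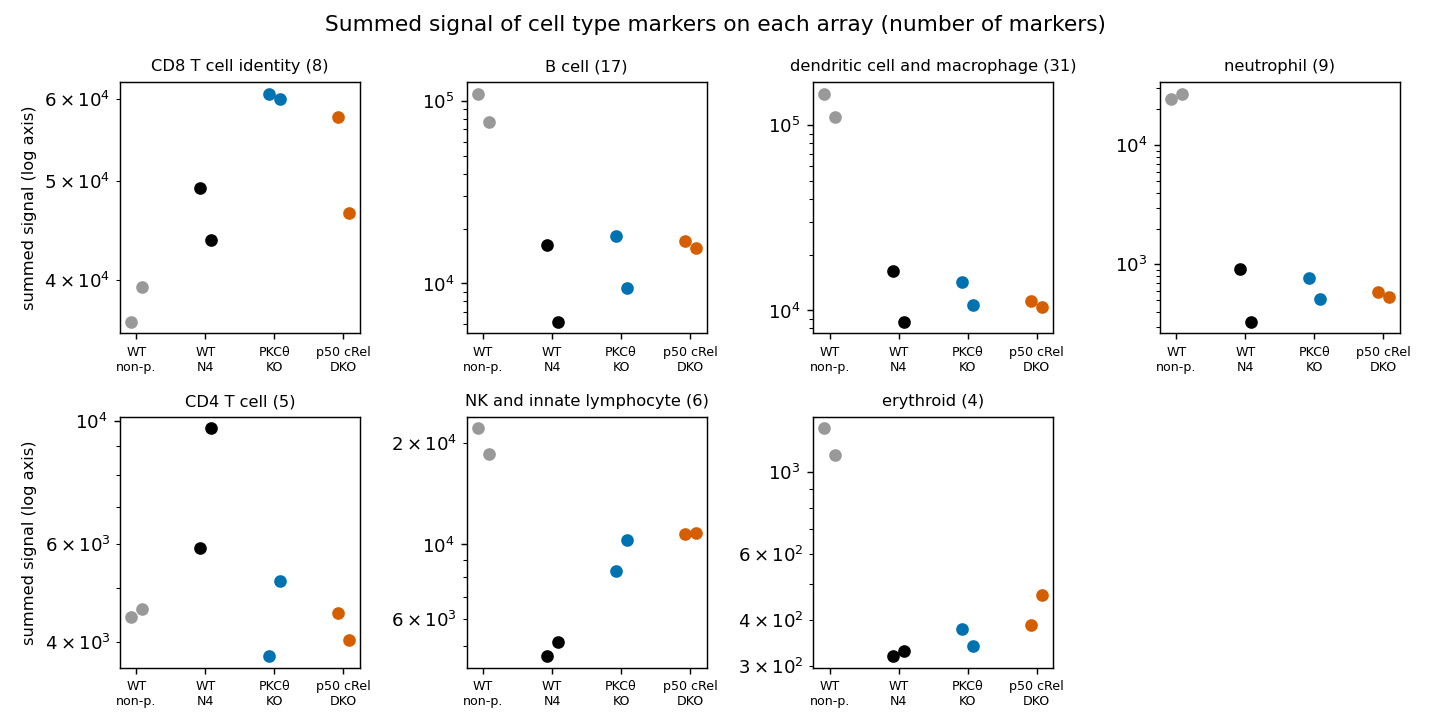
Each panel sums the signal of the measured markers of 1 cell type (number in brackets) on each array, on a log axis that differs between panels. For B cells and for dendritic cells and macrophages the PKCθ knockout (blue) and double knockout (orange) points overlap, far below the non-pulsed wild-type arrays (grey).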

How the data were processed

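The data are 8 one-colour Affymetrix mouse arrays of cultured splenic CD8 T cells, 2 per group, grouped by sample title. An array without a number in its title was taken as replicate 1. The authors deposited an intensity for each probe set; the submitters' processing notes name GCOS 1.4 and MAS5. Every array had a 2% trimmed mean of 500.003 or 500.002.

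Of 45101 probe sets 64 controls were left out. Symbols came from the platform annotation (34945 probe sets with 1 symbol, 932 with several, 9160 not named) and were updated by Entrez identifier in RefSeq of GRCm38.p6 for 34741, which also gave the chromosome. For 208 probe sets no chromosome was given, and they were left out of the autosomal set. The scale used throughout was log2(signal + 16). Probe sets with a mean over 8 arrays under the 40th percentile (5.38) were left out, which kept 27022, and the probe set with the highest mean stood for a gene. limma 3.58.1 in R 4.3.3 fitted all 8 arrays with a coefficient per group, leaving 4 residual degrees of freedom, and eBayes used the trend of variance on mean. P-values were adjusted by Benjamini-Hochberg over 12520 genes. The steps were tested on simulated data.

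Genes named are Rel, Prkcq, the 15 largest differences each way among genes that passed (gene models without a name, Gm and Rik, left out), up to 4 members of each gene list with the lowest p, and 18 further fixed genes. Some further list members and genes are named after their values were seen. The members and lists were chosen with earlier results of these data known. Lists are described by counts and medians. Alternatives were 2 other scalings, 2 pseudocounts, 2 filters, 2 ways of treating several probe sets, the 4 arrays alone, no trend, the replicate number as a block and each array left out.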

Additional observations from a re-analysis of the deposited data

How the results depend on the processing

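All 54 genes that passed kept their direction under each of 11 processing alternatives and 4 fits that left out an array of the compared groups, except that 2 were not tested with the filter at the 60th percentile. The limma count moved by more than 1.5 times in 5 of the 11. It was 28 without a filter (18 higher, 10 lower), 28 with every named probe set tested on its own (15 higher, 13 lower), 17 without the mean-variance trend (12 higher, 5 lower) and 98 with only the 4 arrays of the compared groups (52 higher, 46 lower). Median centring gave 36 (21 higher and 15 lower). With the replicate number as a block the count was 152 (89 higher, 63 lower), and all 54 were among them. The labels do not say that a number marks a shared batch. Deviations of equally numbered arrays correlated at 0.25 between the knockouts and between 0.25 and 0.58 over all pairs of groups. Among genes described as not passing, Themis (adjusted p = 0.00473), Relb (0.0101), Prkcq (0.0301) and Bcl10 (0.0314) passed with the block, as did Ccr9, Slfn1, Nr4a3, Ahr, Lag3, Oas2, Tapbp, Stat5a, Gstt2, Gstt3, Mt1 and Cd86. Leaving out 1 array of the compared groups gave 0 to 34 genes, 0 to 22 of them higher and 0 to 12 lower. Chosen after seeing the data, leaving out 1 wild-type array gave 50 to 65 (65, with 33 higher and 32 lower, without either wild-type N4 array) and adjusting over autosomal genes only gave 61. List medians kept their sign under all alternatives for cytokines (-0.69 to -0.16), interferon-stimulated genes (0.16 to 0.49), naive and quiescence genes (0.23 to 0.30) and glycolysis (-0.81 to -0.15), while those of cytotoxic granule and MHC class I genes changed sign in 3. With 2 arrays a group, missing calls cannot be read as equal levels.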

Other observations

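In 3 cases, genes that passed lie next to each other, or nearly so, in the RefSeq order of coding genes, and each pair differed in 1 direction. Il3 and Acsl6 on chromosome 11 have 0 coding genes between them and were both lower in the double knockout (-4.24 and -2.31). Ifit3 and Ifit1bl1 on chromosome 19 have 0 between them and were both higher (2.12 and 3.03). Ddt, a homologue of the cytokine MIF, and the glutathione transferase Gstt1 on chromosome 10 have 1 between them and were both higher (1.63 and 2.39). Csf2, a neighbour of Il3, differed by -2.36 without passing. Gstt3 differed by 2.94 (SE 0.49, limma adjusted p = 0.0504) and Gstt2 by 1.31 (limma adjusted p = 0.31) without passing, while Mif, in the same stretch, differed by less than 0.01 and its arrays overlapped. Whether neighbours share differences more often than other genes was not tested. Ddt, Gstt2, Gstt3 and Mif were picked after their values were seen.

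The 54 genes, 0.431% of all 12520 genes tested, lay on 18 of the 19 autosomes. The most were on chromosomes 10 and 11, at 6 each of 603 and 1057 genes tested. Those on chromosome 11 include Rel, a gene that the double knockout lacks.

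Lad1, which encodes a basement membrane anchor protein of epithelia, had a wide difference that missed the threshold. It read 10.53 and 9.47 in the PKCθ knockout and 6.78 and 6.35 in the double knockout, a difference of -3.44 (SE 0.68, limma adjusted p = 0.10), and was picked after its value was seen. Metallothionein Mt1 differed by -1.77 (limma adjusted p = 0.0668) beside its paralogue Mt2, which passed. The costimulatory ligand Cd86, which dendritic cells and B cells carry, read 8.40 and 8.54 against 6.84 and 6.87, a difference of -1.61 (limma adjusted p = 0.0695), and the part of those cells in it was not tested.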
